A study of Mus musculus with 14 samples.

Results

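A set of 150 array probes, of 42006 on the array, was higher in mouse embryonic stem (ES) cells after 48 h of retinoic acid (RA) and in cells described as picked colonies after 4 and after 7 days in RA. The probes were chosen on measured values. Each array compared 1 sample, labelled with Cy3, with a common reference RNA, labelled with Cy5, and the choice used the log2 ratio of sample to reference given by the scanner software, centred on the median of each array. A probe had to be well above background in Cy3 on all RA 48 h, day 4 and day 7 arrays, which 23522 probes were, and its control level could exceed its level in LY294002 by less than 0.5, which left 18802. These were ranked by the smallest of 3 rises, RA 48 h over control day 3, day 4 colonies over standard day 3 and day 7 colonies over standard day 3, and the 150 with the largest smallest rise were kept. The 3 rises and the limit on LY294002 are therefore given as descriptions, without a test.

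The series held 14 arrays, 2 in each of 7 groups, from ES cells of the line MC1 and its sublines, labelled as grown with LIF for control, RA 48 h, LY294002 and both kinds of colony and simply in ES medium for the other groups. Control day 3 cells were MC1-ZE3 grown for 3 days in standard medium, RA 48 h cells were MC1-ZE3 given 50 nM all-trans RA for 48 h, and LY294002 48 h cells were MC1-ZE3 given this inhibitor of phosphoinositide 3-kinase for 48 h (10 nM as labelled, a dose that may be mislabelled). Standard day 3 cells were untreated MC1-ZE3 on other slides than control day 3, and passage 10 cells were MC1-ZE3 kept in RA for 7 days, treated like the day 7 cells, and then for 10 passages without it. Day 4 colonies, described in the series' design as hand-picked, grew from MC1-ZE16 cells and day 7 colonies from cells labelled ES MC1, both in 50 nM RA. The day 7 cells carry the strain label 129SvEv-Tac and all other groups 129/Sv. The day 7 extraction label mentions a well and the day 4 treatment label the addition of lysis reagent on day 4 without picking, so whether colonies or whole wells were lysed is uncertain. Nothing in the labels shows whether the 2 arrays of a group are separate cultures. The p-values therefore reflect the spread of these samples alone, which may be technical. Each kind of colony had a slide to itself and another cell source than standard day 3, so RA, slide and cell source cannot be told apart in the colony values.

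RA, the active form of vitamin A, binds nuclear receptors that sit on DNA and switch on genes near their binding sites. In ES cells it starts differentiation, and the Hox genes, which set position along the body axis, are among its known targets. LIF is the cytokine that helps mouse ES cells to self-renew, so cells given both receive opposing signals.

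Most of the 150 probes are known here only by identifier and sequence, because the files give no gene names for probes. ES cell marker genes were for this reason not analysed here. Matching every probe to RefSeq's windows around gene starts (assembly GRCm38.p6, 300 bases each, at least 30 bases in a row identical, either strand) placed 550 probes of the array and 4 of the 150. These 4 sequences are shown because they are the members that can be tied to a named locus.
Z00070363-1: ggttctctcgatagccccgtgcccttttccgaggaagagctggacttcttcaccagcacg
Z00010110-1: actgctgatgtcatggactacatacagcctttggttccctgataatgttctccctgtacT
Z00035035-1: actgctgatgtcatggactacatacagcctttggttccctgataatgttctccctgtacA
Z00031313-1: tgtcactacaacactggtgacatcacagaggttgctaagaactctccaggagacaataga
Capitals mark the only base at which Z00010110-1 and Z00035035-1 differ, T60A, counted from 1 at the 5′ end of the probe as the files give it.

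All 60 bases of Z00070363-1 lie at chr11:96353540-96353599 of GRCm38.p6, on the plus strand, inside the RefSeq span of the protein-coding gene Hoxb2 (chr11:96351632-96354020). Hoxb2 encodes a homeodomain transcription factor of the Hoxb cluster that patterns the hindbrain. The window that placed it is that of Hoxb3os, a gene on the minus strand, and the probe lies upstream of its start. Of the 3 reading frames on the strand of the probe, 2 held no stop codon within it. Of the 25 Hox genes with a window, windows were matched by 1 probe of the array, this one, so other Hox genes were not reached by this search.

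The other 3 placed probes matched windows of 19 genes on chromosome 5, 5 of them named Speer4, a multicopy family of spermatogenesis-associated glutamate-rich proteins, on the strand opposite to the gene. The matches over all 60 bases lay 36 to 175 bases before the gene's start, and the others were not placed to the base. Z00010110-1 was identical over all 60 bases to 3 windows, for example before Speer4d at chr5:15618954-15619013, within the span of the long non-coding RNA gene Gm30417. Z00031313-1 was identical to 5 windows, for example at chr5:15619028-15619087 beside the same gene, and Z00035035-1 to none over its full length. The copies cannot be told apart by these probes, and no other probe of the array matched a Speer window. The 3 probes share their target family and are not independent readings.

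The other probes lie at positions not known here, and their sequences are not shown. Among them, Z00074905-1 and Z00026338-1 share 42 bases, and Z00058639-1 and Z00077072-1 share 50 and 51 bases with probes outside the set. The polyadenylation signal AATAAA or its variant ATTAAA, searched on the strand of the probe, was present in 18 of the 150 probes (12%) and in 10.4% of all tested probes. The median GC content was 43.3% against 45% over all tested probes. These shares lay close to those of all tested probes.

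All levels from here on are log2 ratios of sample to reference after background correction (normexp with an offset of 50) and loess normalization within each array, in which 31053 probes were tested. This scale differs from the one used for the choice, and the offset shortens the differences of dim probes. Applied to the loess values, the same choice kept 82 of the 150 probes. The reference is a mixture of RNA from other cell lines with ES cell RNA, so a level of 0 means as much as in that mixture. Its channel was above background for 136 of the 150 probes on all 14 arrays (90.7%, against 82.7% of tested probes).

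In untreated cells most of these probes read below the reference, and in the RA groups 85 to 87 read above it. In standard day 3 the median level of the 150 probes was -0.64, with 66 probes at least 2-fold and 38 at least 4-fold below the reference and 1 at least 2-fold above it. In control day 3 the median was -0.80, in RA 48 h 0.25, in day 4 colonies 0.16 and in day 7 colonies 0.30. At least 2-fold above the reference stood 43 probes in RA 48 h, 26 in day 4 colonies and 45 in day 7 colonies. Over all tested probes the median level of each of these groups lay between -0.0137 and 0.0034. The choice asked for rises, so higher levels in the RA groups than in untreated cells follow from it. Shares of all tested probes are not given for these counts, which only describe the set. Detection in untreated cells set a limit to these comparisons. The Cy3 signal was well above background on both arrays for 143 probes in control day 3 but for 101 in standard day 3, where 9 were so on 1 array and 40 on none, and for 101 in passage 10. Over the whole array, 56.1% to 75.1% of the probes were above background per array, with control day 3 among the brightest groups and standard day 3 and passage 10 among the dimmest, and the part of this gap in the results was not tested. Less RNA per cell and fewer cells holding an RNA cannot be told apart in these bulk samples.

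The size of the rises varied widely. The median log2 difference was 1.11 (0.21 to 4.79) for RA 48 h over control day 3, 0.97 (0.17 to 3.66) for day 4 colonies and 1.15 (-0.08 to 4.92) for day 7 colonies over standard day 3. On the scanner software's ratios, the scale of the choice, these medians were 1.35, 1.84 and 1.85, and the rise at 48 h was the smallest of the 3 in 81 probes. On the loess scale, at least 2-fold higher were 83 probes at 48 h, 71 on day 4 and 85 on day 7, where 2.73%, 3.41% and 5.34% of all tested probes were, counts that the choice of probes itself fixes. On this scale all 3 rises were at least 2-fold in 40 probes and at least 4-fold in 6, while at least 1 rise was under 0.5 in 42. The largest of the 3 was that at 48 h in 56 probes, that on day 4 in 36 and that on day 7 in 58. At the edge of the set, on the scale of the choice, Z00018193-1, Z00028760-1 and Z00060210-1 entered with smallest rises of 0.90, 0.90 and 0.89. Z00074107-1, Z00029448-1 and Z00033228-1 just missed it with 0.89, 0.88 and 0.88. A further 276 probes had smallest rises as large but were left out by the limit on LY294002.

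The probe ranked first, Z00022345-1, was high in all 3 RA groups. Its levels were -3.31 and -3.18 in control day 3 and -3.26 and -3.18 in standard day 3. They were -0.01 and 0.16 in RA 48 h, 0.43 and 0.45 in day 4 colonies and 1.02 and 0.50 in day 7 colonies. The RA groups thus stood apart from all untreated arrays, by 9.96-fold at 48 h, 12.6-fold on day 4 and 15.8-fold on day 7. The day 7 rise exceeded that at 48 h by 0.67 in log2, and the day 4 rise did so by 0.34 (SE 0.21 each). No test is given, because the probe was ranked first on these rises. Cells in LY294002 held -3.18 and -2.80, and passage 10 cells -3.36 and -3.20, within or close to the range of untreated cells.

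The Hoxb2 probe was highest at 48 h of RA and lower in the colonies. The probe Z00070363-1 gave -1.47 and -1.46 in control day 3 and 2.62 and 2.66 in RA 48 h, 17.2-fold higher. It gave -1.53 and -1.48 in standard day 3, -0.25 and -0.33 in day 4 colonies and 1.07 and 0.56 in day 7 colonies. The colonies thus lay above untreated cells and below RA 48 h with no overlap. The day 4 rise minus the 48 h rise was, in log2, -2.89 (SE 0.17), and the day 7 rise minus the 48 h rise -1.78. Day 7 colonies also exceeded day 4 colonies. The probe is described for its position, not for these values. The arrays of these groups did take part in the choice, which fixed no order between the rises, so no test is given. Slide and cell source also differed between the colonies and the 48 h cells. Passage 10 cells had -1.34 and -1.45 and LY294002 cells -1.31 and -1.24, each close to untreated cells.

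Z00005024-1 and Z00065548-1 were also highest at 48 h. Z00005024-1 had the largest rise of the set at 48 h, from 0.29 and 0.52 to 5.16 and 5.23, or 27.7-fold. In the colonies it stood at 1.49 and 1.52 on day 4 and at 2.22 and 1.1 on day 7, against 0.09 and 0.16 in standard day 3. Colony rise minus 48 h rise was -3.41 on day 4 and -3.26 on day 7, given without a test because the probe was singled out for these values. The day 7 arrays of this probe lay apart from each other but both below RA 48 h. Z00065548-1 went from 0.17 and 0.10 to 4.32 and 4.30 at 48 h and lay at 0.79 and 0.60 on day 4. It was not well above background on any standard day 3 array, so the size of its colony rises was not measured.

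Z00005343-1 took the opposite course. It went from -3.63 and -3.55 in control day 3 to -2.19 and -2.09 at 48 h, 2.74-fold. Colonies held 0.27 and 0.25 on day 4 and 1.75 and 1.45 on day 7, against -3.33 and -3.31 in standard day 3, which made day 7 colonies 30.3-fold higher. Each group stood apart from the others, in the order untreated, RA 48 h, day 4, day 7. Colony rise minus 48 h rise was 2.13 on day 4 and 3.47 on day 7, the most positive values of the set. The probe is described because of them, so no test is given.

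The difference between the rise in colonies and that at 48 h was called in shares of the 150 probes only somewhat above those of all tested probes. The choice asked for both rises and fixed no order between them, but it used the arrays of both, so these counts describe the chosen probes. For day 4, limma called 31 of the 150 probes as rising more in colonies (17.7% of all tested probes were called this way) and 42 as rising less (21.0% of all). For day 7 it called 38 as rising more (20.6% of all) and 40 as rising less (22.2% of all). The balance depended on the scale. With the scanner software's median-centred ratios 54 rose more and 15 less on day 4 (19.2% and 18.2% of all), and 45 more and 14 less on day 7 (20.2% and 18% of all). Median centring in place of loess gave 14 and 25 on day 4 (6.82% and 6.27% of all). On day 7 it gave 38 and 11 (17.3% and 4.96% of all) and raised the median of all tested probes to 0.11. Part of the calls rest on dim baselines. Among the 100 probes measured on both arrays of control and of standard day 3, 27 rose more and 19 less on day 4, and 31 more and 19 less on day 7. Of the other 50 probes, 23 were called as rising less on day 4 and 4 as rising more. Shares of all tested probes under the same split are not given, so these counts only describe the set.

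Day 7 and day 4 colonies differed at most of these probes, in both directions, as they did at most of all tested probes. The share of the 150 called lower (27.3%) was close to that of all. On day 7, 59 of the 150 were higher (27.4% of all tested probes were) and 41 lower (25.4% of all) in limma, with a median log2 difference of 0.16 against 0.01 over all tested probes. At least 2-fold, 25 of the 150 were called higher on day 7 (4.36% of all) and 9 lower (2.61% of all). Median centring gave 58 higher and 19 lower, with a like imbalance over all tested probes (25% and 8.12%). The ratios of the scanner software gave 43 each way (27.4% and 25.3% of all). The arrays of both kinds of colony took part in the choice, which fixed no order between them. Day, cells of origin and slide cannot be told apart here.

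Among the probes higher on day 7, Z00024786-1 went from 0.99 and 0.86 on day 4 to 3.77 and 3.48 on day 7, with 2.13 and 2.15 in RA 48 h. The difference was 2.70 (SE 0.14), or 6.51-fold. Day 4 colonies thus lay below RA 48 h and day 7 colonies above it, without overlap. Z00060282-1 followed with 0.85 and 0.67 against 3.48 and 3.36, a difference of 2.66. Both probes are described because of these differences, so no test is given. Z00018815-1, Z00023103-1 and Z00026224-1 were higher on day 7 by 2.47, 2.37 and 2.23. Of these, Z00023103-1 and Z00026224-1 were not well above background in standard day 3, where their day 7 levels were at least 6.79-fold and at least 6.82-fold higher in Cy3.

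Among the probes higher on day 4, Z00015939-1 had 0.27 and 0.19 in day 4 colonies and -1.48 and -1.62 in day 7 colonies. Its difference was -1.78 (SE 0.10), and RA 48 h lay between with -0.91 and -0.79. Only in day 4 colonies did it exceed the reference. Z00027813-1 gave 2.01 and 1.83 on day 4 against 0.29 and 0.46 on day 7 (difference -1.55). Z00031324-1 gave 0.59 and 0.38 against -1.10 and -0.75 (difference -1.41). No test is given for these probes, which were singled out for their differences between day 7 and day 4. Z00060019-1 and Z00007453-1, lower on day 7 by -1.65 and -1.33, had day 7 arrays that lay further apart, at 2.82 and 2.02 and at 2.17 and 1.24, yet both below their day 4 arrays.

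The 3 probes of Speer4-type sequence gave similar values. Z00010110-1 stood at 0.69 and 0.92 in control day 3, at 2.81 and 2.98 in RA 48 h, at 1.27 and 1.22 on day 4 and at 2.52 and 1.76 on day 7. In standard day 3 it gave -0.24 and -0.36 and was above background on 1 of 2 arrays. The untreated groups, on different slides, thus differed from each other at this probe, by 1.1 on the log2 scale. The control level lay close below that of day 4 colonies. Day 7 colonies exceeded day 4 colonies by 0.90 in Z00010110-1, 0.92 in Z00035035-1 and 0.89 in Z00031313-1, which are not independent readings. No test is given, because the arrays of both kinds of colony took part in the choice. Day, cell source and slide cannot be told apart in these differences. In LY294002 the 3 probes had log2 differences to control day 3 of -0.39, -0.41 and -0.25, and in passage 10 they differed from standard day 3 by -0.09, 0.02 and -0.04.

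After 10 passages without RA the probes read close to untreated standard cells. The passage 10 arrays took no part in the choice, while the standard day 3 arrays did, as the low side of the colony rises. The median log2 difference of passage 10 from standard day 3 was 0.01 (-0.69 to 0.42), as it was over all tested probes (0.01). Of all tested probes 3.42% were called. Limma called 0 of the 150 probes higher (1.66% of all tested probes were) and 6 lower (1.76% of all). At an unadjusted p under 0.05, 11 were higher (8.95% of all) and 18 lower (8.23% of all). The 95% interval of the difference lay within 1 log2 unit of 0 for all 150 probes and within 0.5 for 131. Within slides, where a passage 10 and a standard array sat side by side, the median difference was 0.03 on slide 2 and -0.0039 on slide 3. In either direction 0 of the 150 differed 2-fold on either slide, and over all tested probes 0.0515% were 2-fold higher and as many lower in the mean of both. The Cy3 signal was above background on all 4 arrays for 96 probes, with a median difference of -0.01, and on none for 39, for which the cells can only be said to lie near or below detection in both cultures.

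The 6 probes called lower after the passages were all above background on the 4 arrays. Z00075138-1 had -0.26 and -0.10 in standard day 3, 2.98 and 3.01 in day 4 colonies and -0.88 and -0.87 in passage 10. It thus ended below its standard level, by -0.69 (SE 0.08, limma adjusted p = 0.000427), with -0.62 on slide 2 and -0.76 on slide 3. Z00045306-1 fell from -0.17 and -0.30 to -0.82 and -0.85 (difference -0.60, limma adjusted p = 0.000925), although control day 3 cells, untreated too, lay lower still at -1.50 and -1.56. Z00024370-1, with -0.51 and -0.55 in standard day 3 and -0.97 and -0.94 in passage 10, differed by -0.43 (limma adjusted p = 0.00407). Z00034287-1 (-0.45), Z00070467-1 (-0.31) and Z00074666-1 (-0.25) made up the rest, and Z00016182-1 and Z00034493-1, at -0.45 and -0.44, did not pass (limma adjusted p = 0.057 and 0.1). The highest, Z00037214-1, had a difference of 0.42 (95% interval 0.12 to 0.73, limma adjusted p = 0.13), followed by Z00058639-1 at 0.37, Z00026079-1 at 0.29, Z00017381-1 at 0.28 and Z00060019-1 at 0.26. The calls were few and moved with the setting. Median centring gave 0 calls (0.058% and 0.0612% of all tested probes were called higher and lower), although the differences themselves stayed near, at -0.67 for Z00075138-1, -0.59 for Z00045306-1 and -0.46 for Z00034287-1. The scanner software's ratios gave 2 higher and 9 lower (1.28% and 1.72% of all), and leaving out either passage 10 array left 3. Z00034287-1 lost its call without standard day 3 replicate 1 (limma adjusted p = 0.0632) and without passage 10 replicate 2 (limma adjusted p = 0.104).

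Some of these probes were also higher in cells given LY294002 without RA. Because the choice kept out probes that fell with LY294002 against control day 3, the comparison with standard day 3 is given first. Against standard day 3, 64 of the 150 were higher (23.2% of all tested probes) and 18 lower (23.4% of all) in limma, with a median difference of 0.21 against 0.01 over all tested probes. At least 2-fold, 21 were called higher (1.51% of all) and 2 lower (3.17% of all). With the scanner software's ratios 84 were higher and 12 lower (25.6% and 22.1% of all), and the median difference was 0.76 against 0.07 over all tested probes. With median centring 77 were higher and 4 lower (33% and 6.55% of all), with a median of 0.41 beside a shift of all tested probes to 0.20. Standard day 3 levels helped to choose the probes as low, and the limit on LY294002 kept out falls. Both favour higher counts here, so these counts describe the chosen probes. On no standard day 3 array were 40 of the 150 above background. LY294002 arrays had a slide of their own, and its effect and that of LY294002 cannot be told apart. Against control day 3, where the choice itself limits falls, 53 were higher (24.5% of all) and 10 lower (28.1% of all), and nothing is read from these counts.

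Z00017558-1 reached similar levels with LY294002 and with RA, a difference that was not tested. It gave -0.65 and -0.66 in control day 3, -0.94 and -0.80 in standard day 3, 1.1 and 1.00 in LY294002 and 0.77 and 1.00 in RA 48 h. Its LY294002 level exceeded standard day 3 by 1.92 (SE 0.09), or 3.78-fold. The treated arrays of both kinds stood clear of all untreated ones. Z00025863-1 gave -2.30 and -2.26 in control day 3 and -1.77 and -1.76 in standard day 3. It gave -0.28 and -0.45 in LY294002, 1.40 above standard day 3, and -0.90 and -0.77 in RA 48 h. Z00038225-1 reached 1.67 and 1.69 in LY294002 and 1.09 and 1.21 in RA 48 h. Standard day 3 gave 0.32 and 0.54, and LY294002 lay 1.25 above it. In 10 of the 150 probes the mean level with LY294002 was above that with RA, these 3 among them. The choice asked for a rise with RA, and no share of all tested probes is given, so this count only describes the set. Z00017558-1, Z00025863-1 and Z00038225-1 were singled out for high values with LY294002 against control day 3. Standard day 3 levels also helped to choose the probes, so no test is given.

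Z00034287-1 and Z00034203-1 completed the highest differences to control day 3, with 1.33 and 1.18, and exceeded standard day 3 by 1.14 and 1.36. The overlapping probes Z00074905-1 and Z00026338-1, which are not independent readings, lay 1.24 and 1.1 over standard day 3. No test is given, because the choice favoured low standard day 3 levels and kept out falls with LY294002. At the low end, Z00040793-1, Z00075369-1, Z00035035-1, Z00001769-1 and Z00010110-1 had differences to control day 3 of -0.42, -0.41, -0.41, -0.40 and -0.39. Of these, Z00075369-1 and Z00010110-1 were nevertheless 0.38 and 0.70 above standard day 3, and Z00001769-1 was lower than there too (difference -1.03).

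Levels in the untreated groups differed from each other at 82 of the 150 probes (54.7%), as they did at most of all tested probes. These groups lay on different slides scanned on different days, so culture, slide and scan day cannot be told apart here. Control day 3 exceeded standard day 3 by a median of 0.06 (-1.29 to 1.28), with 48 of the 150 probes higher (29.4% of all tested probes) and 34 lower (24.5% of all) in limma. With median centring these counts were 36 and 7, (22.3% and 7.83% of all), and with the scanner software's ratios 56 and 21 (27.8% and 24% of all). The median was 0.33 on the scanner software's ratios and 0.33 in the authors' deposited table, against 0.06 and 0.00 over all probes, so its size depended on the scale. Z00045306-1 had the largest difference downward, -1.29, and Z00060071-1 the largest upward, 1.28. For such probes the size of a rise depends on which untreated cells it is counted from.

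The remaining probes with the largest smallest rises filled in the range between these shapes. Z00038436-1 went from -1.48 and -1.50 to 1.08 and 1.21 at 48 h, with 1.01 and 1.09 on day 4 and 1.20 and 1.21 on day 7. It was below background in standard day 3, where colonies were at least 5.26-fold (day 4) and at least 5.41-fold (day 7) higher in Cy3. Z00006481-1 reached 2.55 and 2.56 at 48 h, 2.56 and 2.44 on day 4 and 4.16 and 4.34 on day 7. It was not well above background on either standard day 3 array, so no fold over standard day 3 is given for it. Z00024370-1 differed between day 7 and day 4 by -0.53, and Z00075138-1, ranked 14 and described above for passage 10, by -0.79. No test is given, because the arrays of both kinds of colony took part in the choice. Z00018780-1 was higher by 3.77 at 48 h, 2.10 on day 4 and 3.17 on day 7, and Z00024800-1 by 2.62, 1.01 and 2.83. Z00050641-1, Z00025585-1 and Z00026595-1 were higher by 3.44, 2.06 and 1.45 at 48 h. The first 2 of these were not above background in either untreated culture, so that RA 48 h was at least 9.72-fold and at least 3.57-fold above control day 3 in Cy3.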

How the data were processed

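Per the file headers, the deposited scanner files were made with version 9.5.1.1 of Agilent Feature Extraction. Their deposited intensity values (mean signal and median background per spot) are not normalized, and their deposited log10 ratios are of Cy5 over Cy3 after the software's background and dye correction, per the file headers. The sample was in Cy3 and the reference in Cy5 on every array, per the labels, with no dye swap. A deposited value table of the authors has log10 values of 25030 probes. It was tied to the arrays by its match to the deposited log10 ratios after centring each probe (r = 0.994 to 0.998), and served as an alternative. Its constant per probe is unknown, and how it was made is not given in the sources used here.

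Intensities were corrected with normexp (offset 50) and normalized by loess within each array in limma 3.58.1 (R 4.3.3, statmod 1.5.0), without control or outlier spots, and repeated spots were averaged by probe. Log2 differences computed here from the deposited intensities were fitted with lmFit and eBayes over all 14 arrays, 1 mean per group (7 residual and 5.33 prior degrees of freedom). A probe was tested if above background in Cy3 on both arrays of at least 1 group. A call is an adjusted p (Benjamini-Hochberg, all tested probes, two-sided) under 0.05. A level not above background on both arrays of a group was replaced, for folds given as "at least", by the higher of the array's lowest Cy3 signal above background and its own value, after loess and Aquantile normalization, and such folds are open to dye bias. Where that value exceeded the fold of the log2 ratios, it is no bound and is not given. The fit was tested on simulated data.

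The 150 probes, the comparisons and the lists were chosen with earlier results of these data known. Named are the 10 probes with the largest smallest rise, the 5 highest and 5 lowest in passage 10, LY294002 and day 7 comparisons, those at the edge, and those sharing sequence or placed on a gene. Z00005024-1, Z00005343-1, Z00060071-1, Z00070467-1 and Z00074666-1 were named after their values were seen. Among 408 gene symbols in 15 lists, cell type markers included, 0 matched a probe name, so the lists were not used here. Sequences are printed only for the 4 probes placed by a RefSeq window, since the planned match to proteins could not be made. Same-numbered passage 10 and standard day 3 arrays shared a slide, per the file headers, and deviated together (r = 0.254), so these numbers pair the samples. Alternatives were the scanner software's ratios, median centring, no background correction, no filter, the slide or the replicate number as a block, the authors' table, and leaving out each array.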

Additional observations from a re-analysis of the deposited data

Results flagged for a closer look

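The test of the difference between rises called 73 of the 150 probes (48.7%) for day 4 colonies against 48 h of RA, where 17.7% of all tested probes were called as rising more and 21.0% as rising less. It called 78 (52%) for day 7 colonies, where these shares were 20.6% and 22.2%. On both days the most positive difference was that of Z00005343-1, 2.13 on day 4 and 3.47 on day 7. On day 7 the most negative was that of Z00005024-1, -3.26. On day 4 the fitted value of Z00065548-1 was -3.47, but the probe was above background on 0 standard day 3 arrays, so this size was not measured and has no rank, and with the scanner software's ratios it was -1.12 (limma adjusted p = 0.247). Groups of 2 arrays are too small to look for a stray array.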

How the results depend on the processing

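For 28 values of named probes, 321 alternatives kept direction and call, 11 lost the call and 0 turned. Most of these values were extremes picked from groups that took part in the choice, so the tally only describes the processing. It includes probes for which no test is given above, and Z00065548-1, whose size was not measured. The rule on loess values kept 82 of 150 probes, and without 1 array in turn it kept 131 to 147. With the replicate number as a block, which for passage 10 and standard day 3 is the slide, 7 probes were called there in place of 6, and the block moved no other count by over 1.5 times. For passage 10 against standard day 3 the count was 11 with the scanner software's ratios and 0 with median centring, and 3 to 5 without 1 array. Median centring lowered the counts to 39 (day 4 against 48 h), 49 (day 7 against 48 h) and 43 (control against standard day 3). The shares of all tested probes called up and down fell too. They were 6.82% and 6.27%, 17.3% and 4.96%, and 22.3% and 7.83%, in this order. The authors' value table, which holds 116 of the 150 probes, gave 66 for day 7 against day 4 colonies and 46 for day 7 against 48 h. Of all its probes, 22.2% were called up and 20.7% down in the first comparison, and 17.1% and 16.2% in the second. Such shares are not given for the fits that left out an array. Without 1 array in turn, counts ran from 53 to 68 for LY294002 against control and 67 to 80 against standard day 3, 88 to 103 for day 7 against day 4, 59 to 67 and 67 to 82 for the colony rises against 48 h, and 64 to 73 for the untreated cultures. For changes other than of the scale, the causes were not tested. Signal over background limits the 50 probes dim in an untreated culture.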
